A study of Mus musculus with 27 samples.

Results

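Cells of the mouse T cell precursor line ProT were compared at 24 h and at 12 h after 4-hydroxytamoxifen, to see which changes present at 12 h had gone again by 24 h and which had grown further. The 3 libraries of each time were chosen by their labels, 6 of the 15 ProT libraries and of the 27 libraries of the series, and all 13610 genes that passed the filter on low counts, of 25250 with a count, were compared. The labels describe TAL1 as induced in all ProT groups by way of CreER and LoxP, with 4-hydroxytamoxifen as the agent. By their labels the groups differ only in time: 24 h and 12 h, with the 0, 6 and 18 h libraries of the same line for context. No parallel culture without the agent is labelled at 12 or 24 h, so time in culture and time after the agent cannot be told apart. All libraries are of a single line, and separate cultures are not named in the labels, so a p-value here measures the spread between libraries, which may be technical. TAL1 is a basic helix-loop-helix transcription factor that is normally silent in maturing T cells and is switched on in many T cell leukaemias. It pairs with E proteins, and binds DNA in a complex with GATA and LMO factors.

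The 24 h libraries held 6258268, 5911082 and 4614643 counts in genes, and the 12 h libraries held 6599146, 6279107 and 4649416. Levels are in CPM, counts scaled to a common library total and by the TMM factor of the library, and a gene was called where edgeR's quasi-likelihood test gave an adjusted p under 0.05. Reads in no annotated gene made up 17.8% to 18.4% of the 24 h libraries and 18.8% to 19.4% of the 12 h libraries. Mitochondrially encoded genes took 9.71% to 10.1% of counts in the 24 h libraries and 10.2% to 12.8% in the 12 h libraries. Both shares separated the groups, and their part in the results was not tested. Among these libraries, 12 h library 1 stood apart by a chi-square of counts over genes, per degree of freedom. It was 20.1 and 18.5 between that library and the other 12 h libraries and 7.34 between those, against 2.64 to 4.38 between 24 h libraries. Outside these groups, 6 h library 1 also stood apart, at 23 and 18.8 from the other 6 h libraries. It enters the shared estimate of the spread and the comparison of 18 h with 6 h. T lineage precursor markers were present, with 0 of 16 at a count of 0 over these libraries and a summed level of 1135 to 1209 CPM in the 24 h group and 1265 to 1355 CPM in the 12 h group, which did not overlap. The part of this in the results was not tested, and in bulk RNA fewer cells of a type and less RNA per cell cannot be told apart. Cd4, Cd8a and Ptcra were near 0. The B cell genes Pax5 and Ms4a1 were at 0, and the summed B cell markers came to 3.22 to 7.22 CPM in the 24 h group and 4.21 to 5.53 CPM in the 12 h group. Summed markers of myeloid, erythroid, megakaryocyte with mast, NK, stromal and endothelial cells also overlapped between the groups, with Prf1, Dcn and Cdh5 at 0. Some other members of these lists were well above 0. Means at 24 h and 12 h were 449 and 424 CPM for Cpa3, 244 and 239 for Kit and 189 and 195 for Gzmb. They were 80.8 and 78.3 CPM for Hbb-bs, 70.9 and 70.1 for Pecam1 and 36.2 and 36.1 for Pdgfrb. Megakaryocyte with mast markers summed to 711 to 758 CPM in the 24 h group and 688 to 723 CPM in the 12 h group. Tal1 itself (chromosome 4, 115056426 to 115071755, GRCm38) had 2068, 2026 and 1963 CPM in the 24 h libraries, against 2259, 2227 and 1779 CPM in the 12 h libraries, and no difference was called (log2 fold change -0.05 ± 0.12, adjusted p = 0.943). The groups overlapped. At 0 h the libraries had 2895, 3028 and 3098 CPM, above both, so the counted Tal1 gene did not show the induction that the labels describe.

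Between 12 and 24 h few genes changed, and 10 of the 26 that did were members of a glycolysis and hypoxia list, all lower at 24 h. Of 13610 genes, 26 (0.191%) were called, 5 higher at 24 h (0.0367%) and 21 lower (0.154%), and 1157 had an unadjusted p under 0.05. In each of the 26 the 3 libraries of one time all lay outside the range of the other, as they did in 13.8% of all genes tested (7.06% higher and 6.71% lower at 24 h). Only 7 of the 26 differed by 1 or more on the log2 scale. The 12 h libraries are part of both the 12 h against 0 h and the 24 h against 12 h comparison, so the counts that join them are given as counts only. Spread in the shared 12 h libraries enters those differences with opposite signs. It therefore favours genes that turn back over genes that keep growing, by edgeR and by DESeq2. At 12 h against 0 h, 1635 genes were called (12.0% of those tested), 861 higher and 774 lower (5.69%). Of these, 19 (1.16%) turned back, with 18 of them higher at 12 h and Egr1 lower, and 0 were called further in their 12 h direction. The other 1616 were called in neither direction between 12 and 24 h. By edgeR, 40 of the 1635 had an unadjusted p under 0.05 in their 12 h direction at 24 h against 12 h and 145 in the opposite one, and DESeq2 also called 0 that kept growing. By 24 h against 0 h, 2549 genes were called (18.7%), 1283 higher and 1266 lower (9.30%). The other 7 genes called at 24 h against 12 h had not been called at 12 h. These counts rest on single libraries: 24 h against 12 h gave 213 calls without 12 h library 1, 10 without 12 h library 3, 11 without 24 h library 1 and 13 without 24 h library 3. The genes that turned back numbered 74, 10, 11 and 13 in those fits, and the genes that kept growing 2 without 12 h library 1. All 26 genes were also called without 12 h library 1.

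**Figure D1:**
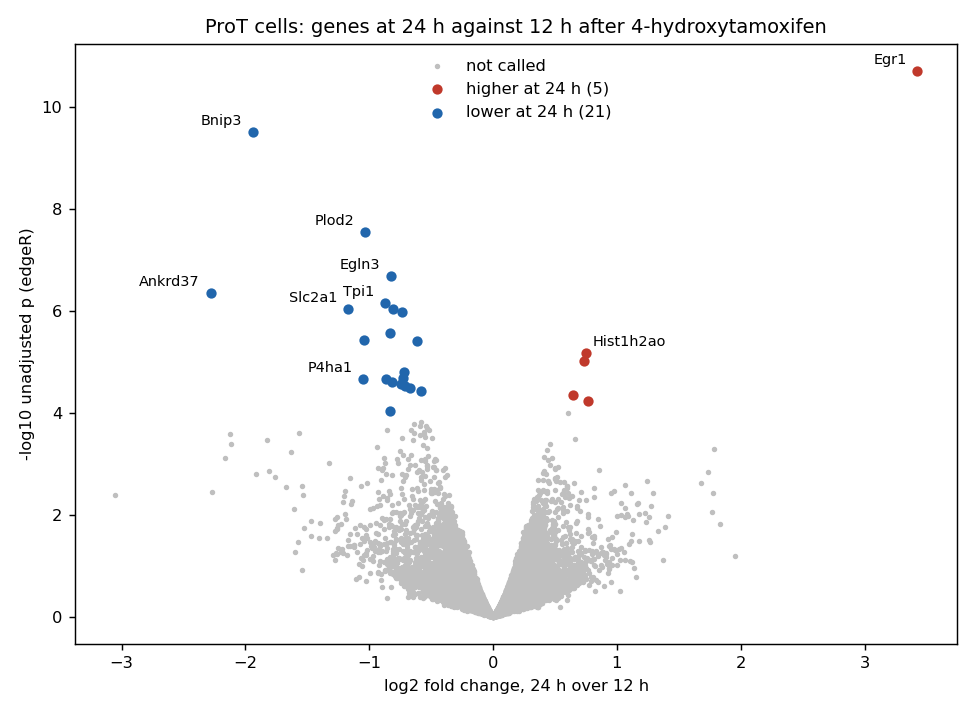
Log2 fold change of 24 h over 12 h (horizontal) against the −log10 of the unadjusted edgeR p (vertical) for each of 13610 genes, with the 5 genes called higher at 24 h and the 21 called lower marked. Egr1 lies far to the right and Ankrd37 and Bnip3 farthest to the left among the called genes.

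Cells that lack oxygen stabilise HIF-1 alpha, the oxygen-sensitive part of the transcription factor HIF-1, because the prolyl hydroxylases that mark it for destruction need oxygen. HIF-1 then binds short hypoxia response elements and turns on glucose uptake, glycolysis, mitophagy and collagen-modifying enzymes. Of 32 tested genes of a glycolysis and hypoxia list, 10 fell, 0 rose and 22 were not called at 24 h against 12 h, where 0.154% of all genes fell. At an unadjusted p under 0.05, 22 of the 32 were lower and 0 higher, where 4.9% and 3.6% of all genes were. DESeq2 called 13 of the 32 lower and 0 higher, and 34 genes in all. Their median log2 fold change was -0.55, beside 0.00 over all genes, and 30 of the 32 were below 0. The same list had 22 of 32 genes higher at 12 h against 0 h, where 6.33% of all genes rose (list median 0.86), and 11 at 24 h against 0 h, where 9.43% did (median 0.26). Medians of the other 34 lists with at least 10 tested genes ran from -0.32 to 0.20 at 24 h against 12 h. In that comparison 38 of 42 lists had no gene called.

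**Figure D2:**
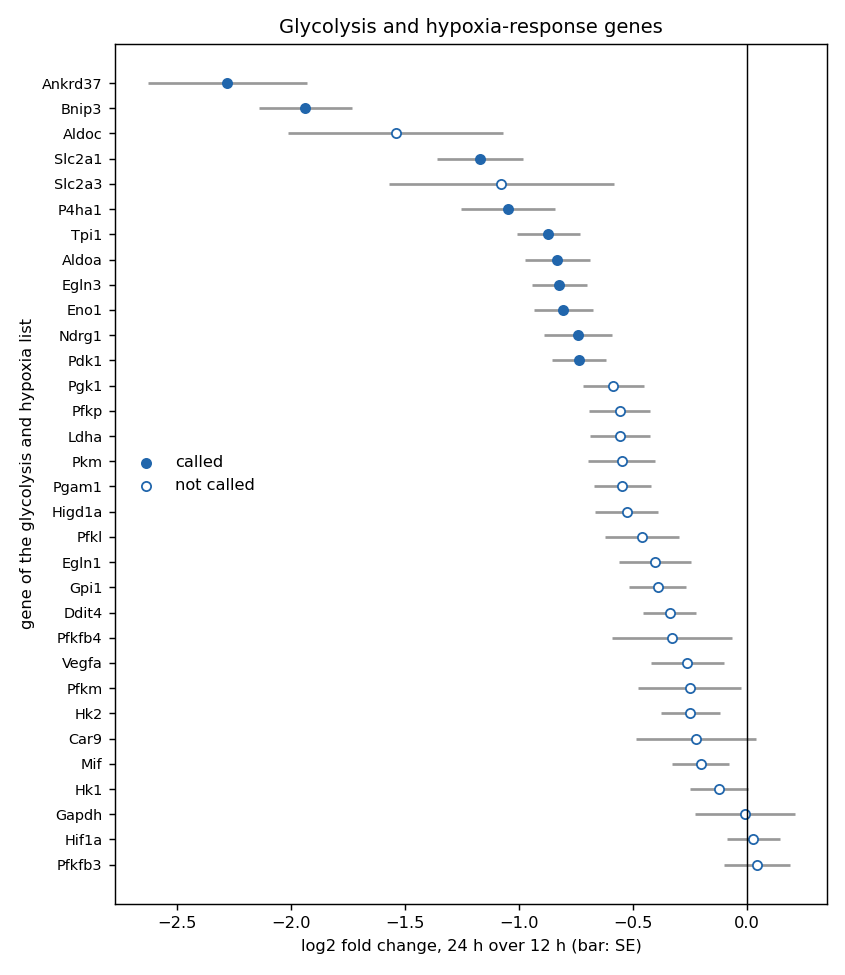
Log2 fold change of 24 h over 12 h for each tested gene of the glycolysis and hypoxia list, with its SE as a bar and filled points for called genes. All 10 called genes lie left of 0, and Hif1a and Pfkfb3 are the only points right of it.

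The 7 called members outside the glycolytic chain are known to be induced by hypoxia. Ankrd37 (chromosome 8, 45996902 to 46005707), a short ankyrin-repeat protein, had 3.53, 2.21 and 2.55 CPM in the 24 h libraries, against 10.9, 8.41 and 22.3 CPM in the 12 h libraries (log2 fold change -2.28 ± 0.35, adjusted p = 0.00123). It overlaps Ufsp2 and Lrp2bp on the other strand. Its 12 h libraries ran widely, but all lay above the 24 h ones, and its mean at 0 h was 3.26 CPM. Bnip3 (chromosome 7, 138890836 to 138909519), which marks mitochondria for removal, had 8.89, 10.1 and 10.4 CPM in the 24 h libraries, against 31.5, 33.7 and 47.9 CPM in the 12 h libraries (log2 fold change -1.94 ± 0.20, adjusted p = 2.15e-06). Its 24 h mean of 9.80 CPM was close to that of 0 h (9.21 CPM; log2 fold change 0.06, adjusted p = 0.891). Slc2a1 (chromosome 4, 119108711 to 119137983), the glucose transporter GLUT1, had 13.6, 13.6 and 13.4 CPM in the 24 h libraries, against 23.4, 28.3 and 40.8 CPM in the 12 h libraries (log2 fold change -1.17 ± 0.19, adjusted p = 0.00156). Egln3 (chromosome 12, 54178981 to 54203860), a prolyl hydroxylase that acts on HIF-1 alpha and is itself induced by it, had 52.6, 61.0 and 54.6 CPM in the 24 h libraries, against 96.0, 89.2 and 113 CPM in the 12 h libraries (log2 fold change -0.82 ± 0.12, adjusted p = 0.000711). Its groups did not overlap. Pdk1 (chromosome 2, 71873224 to 71903858), a kinase that keeps pyruvate out of mitochondria, had 54.1, 58.9 and 54.3 CPM in the 24 h libraries, against 81.9, 90.1 and 108 CPM in the 12 h libraries (log2 fold change -0.73 ± 0.12, adjusted p = 0.00163). P4ha1 (chromosome 10, 59323296 to 59373304), a subunit of the collagen prolyl hydroxylase, had 10.1, 16.4 and 11.2 CPM in the 24 h libraries, against 27.1, 19.1 and 32.8 CPM in the 12 h libraries (log2 fold change -1.05 ± 0.21, adjusted p = 0.0164). Its lowest 12 h library and highest 24 h library lay close together, and the call was lost without 12 h library 3 (adjusted p = 0.234), 24 h library 1 (0.274) or 24 h library 3 (0.13). Without 12 h library 3 its call at 12 h against 0 h was also lost (0.0539). Ndrg1 (chromosome 15, 66929318 to 66969640), a stress-response gene, had 23.3, 19.3 and 21.9 CPM in the 24 h libraries, against 35.6, 36.9 and 35.2 CPM in the 12 h libraries (log2 fold change -0.74 ± 0.15, adjusted p = 0.0187). Its call was lost without any one of 12 h libraries 2 and 3 and 24 h libraries 1 to 3 (adjusted p 0.0746 to 0.181), and its call at 12 h against 0 h was lost without 0 h library 1 (0.0755).

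The called enzymes of the glycolytic chain were Tpi1, Aldoa and Eno1. Aldoa (chromosome 7, 126795234 to 126800751), aldolase A, had 259, 244 and 259.8 CPM in the 24 h libraries, against 473, 440.0 and 444 CPM in the 12 h libraries (log2 fold change -0.83 ± 0.14, adjusted p = 0.00365). Tpi1 (chromosome 6, 124810586 to 124814296), triosephosphate isomerase, had 59.3, 57.7 and 49.2 CPM in the 24 h libraries, against 90.9, 102 and 112 CPM in the 12 h libraries (log2 fold change -0.87 ± 0.14, adjusted p = 0.00156). These 2 were the only genes of the 18 that came down yet were still called higher at 24 h than at 0 h, with a log2 fold change over 0 h of 0.62 (adjusted p = 0.00386) for Aldoa and 0.91 (adjusted p = 0.000247) for Tpi1. Eno1 (chromosome 4, 150236721 to 150248879), enolase 1, had 33.7, 30.0 and 36.7 CPM in the 24 h libraries, against 57.1, 61.0 and 56.8 CPM in the 12 h libraries (log2 fold change -0.80 ± 0.13, adjusted p = 0.00156), and was back near its 0 h mean of 30.8 CPM. Genes of this chain have near-identical processed copies elsewhere in the mouse genome, so their counts may be split. Members of the list that were not called included the glycolytic enzymes Pgk1 (log2 fold change -0.58, adjusted p = 0.0733), Pgam1 (-0.55, 0.081), Ldha (-0.56, 0.0898), Pfkp (-0.56, 0.0905) and Pkm (-0.55, 0.166). Without 12 h library 1, Pgk1, Pgam1, Ldha and Higd1a passed as well, and 14 of the 32 fell, where 123 of 13606 genes did. Hif1a, which encodes HIF-1 alpha, had 49.7, 51.4 and 51.6 CPM in the 24 h libraries, against 50.1, 46.4 and 53.3 CPM in the 12 h libraries (log2 fold change 0.03 ± 0.12, adjusted p = 0.965). The control of HIF-1 alpha by oxygen acts on the protein, which these data do not measure.

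**Figure D3:**
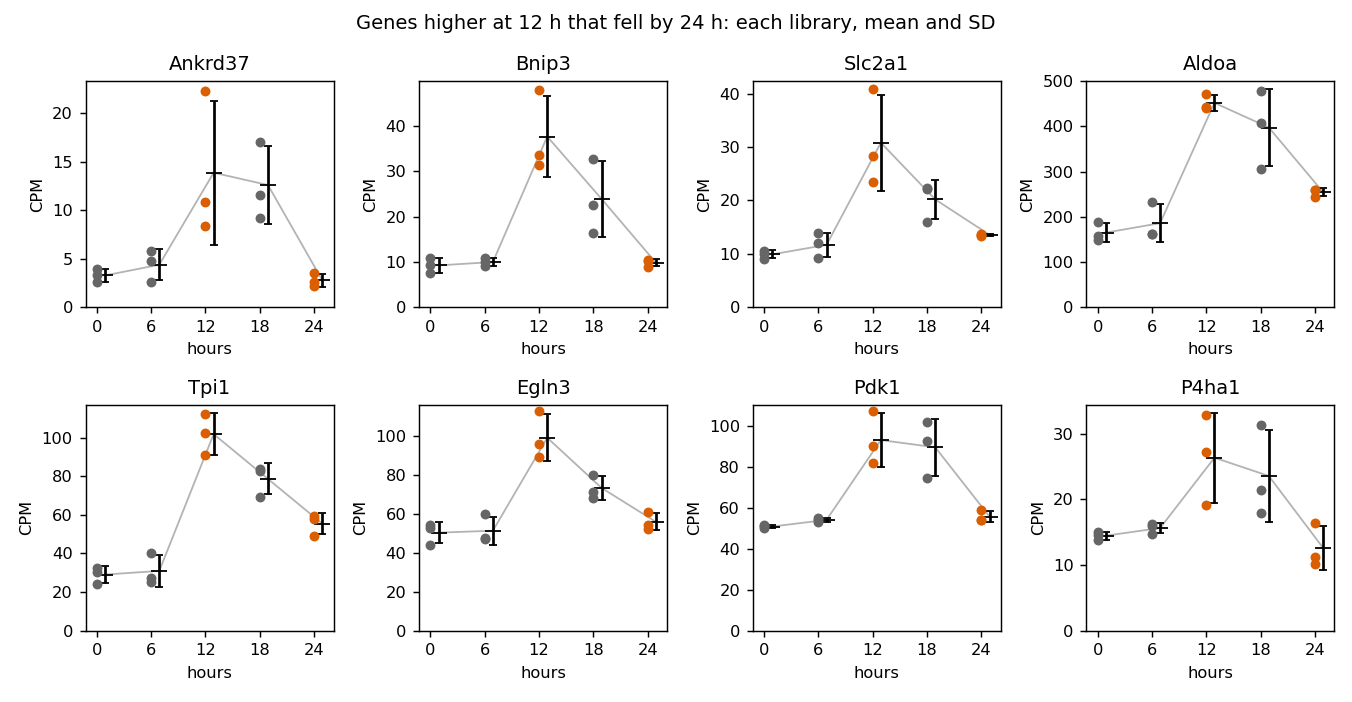
CPM against hours after 4-hydroxytamoxifen for 8 genes that were higher at 12 h and fell by 24 h, with each library as a point (12 and 24 h in orange) and the mean ± SD beside it, joined by a line. In all 8 the 24 h points lie below the 12 h points.

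HIF-1 binds a core of 5 letters, ACGTG or GCGTG, so the letters before the starts of these genes were read in RefSeq promoters (GRCm38.p6, gene sense, 250 bases before the start) for both letter strings on both strands. Of the 18 genes that turned back from a higher 12 h level, 12 had a promoter there. In 10 of these 12 (83.3%) the first listed window held a match, beside 38.6% of 27025 genes, and for ACGTG alone it was 6 of 12 (50%) beside 16.6%. Tpi1 and Aldoa held neither in that window. A match is a description of the letters, and overlapping matches on opposite strands were counted apart. The 27025 genes were not limited to the 13610 tested, and no share over promoters of like composition was taken. These shares therefore cannot tell binding by HIF-1 from a trait of expressed genes, and binding was not tested. The promoters of the 4 called members of the list with the greatest falls are shown, with the matches on either strand in capitals. They are Ankrd37 at chr8:45999851-46000100 (minus strand, 4 matches), Bnip3 at chr7:138909507-138909756 (minus strand, 5), Slc2a1 at chr4:119108495-119108744 (plus strand, 2) and P4ha1 at chr10:59323046-59323295 (plus strand, 3).
Ankrd37: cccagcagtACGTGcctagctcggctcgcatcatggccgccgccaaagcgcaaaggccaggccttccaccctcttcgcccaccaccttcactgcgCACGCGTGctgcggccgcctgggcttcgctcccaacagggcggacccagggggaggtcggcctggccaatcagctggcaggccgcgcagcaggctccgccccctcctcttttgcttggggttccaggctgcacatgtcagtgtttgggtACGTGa
Bnip3: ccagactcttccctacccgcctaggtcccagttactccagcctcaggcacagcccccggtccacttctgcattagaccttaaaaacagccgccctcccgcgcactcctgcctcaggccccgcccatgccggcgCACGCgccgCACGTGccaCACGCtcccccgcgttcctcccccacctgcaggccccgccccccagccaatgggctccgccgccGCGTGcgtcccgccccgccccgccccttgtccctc
Slc2a1: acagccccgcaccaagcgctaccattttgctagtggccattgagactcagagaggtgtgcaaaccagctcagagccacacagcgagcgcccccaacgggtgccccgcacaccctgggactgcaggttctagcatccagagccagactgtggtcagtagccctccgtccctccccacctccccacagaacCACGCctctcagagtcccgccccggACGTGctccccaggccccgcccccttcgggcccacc
P4ha1: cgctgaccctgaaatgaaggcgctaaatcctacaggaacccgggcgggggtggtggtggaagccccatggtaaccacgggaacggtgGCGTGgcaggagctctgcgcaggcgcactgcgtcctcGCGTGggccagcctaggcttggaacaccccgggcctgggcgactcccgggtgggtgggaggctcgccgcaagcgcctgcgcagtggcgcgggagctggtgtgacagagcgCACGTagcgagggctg

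Outside the list, 2 more genes known to be induced by hypoxia turned back. Plod2 (chromosome 9, 92542223 to 92608428), a lysyl hydroxylase of collagen, had 34.7, 34.6 and 32.3 CPM in the 24 h libraries, against 57.6, 63.5 and 87.9 CPM in the 12 h libraries (log2 fold change -1.03 ± 0.14, adjusted p = 0.000129), and the groups were far apart. Fam162a (chromosome 16, 36043761 to 36071594), a mitochondrial protein also called HGTD-P, had 46.5, 46.6 and 63.9 CPM in the 24 h libraries, against 67.8, 106 and 112 CPM in the 12 h libraries (log2 fold change -0.87 ± 0.17, adjusted p = 0.0164). Its lowest 12 h library was close to its highest 24 h library, and the call was lost without 12 h library 2 (adjusted p = 0.126) or 3 (0.216) and without 24 h library 1 (0.226) or 2 (0.157). Kdm3a (chromosome 6, 71588972 to 71632990), a histone demethylase induced by HIF-1, was not called at 12 h against 0 h but fell by 24 h, with 30.5, 31.9 and 26.1 CPM in the 24 h libraries, against 43.6, 40.4 and 62.7 CPM in the 12 h libraries (log2 fold change -0.71 ± 0.14, adjusted p = 0.0199). It was also below 0 h (45.0 CPM; log2 fold change -0.59, adjusted p = 0.0075). Library 3 was the highest at 12 h, and leaving it out ended the call (adjusted p = 0.357), as did leaving out 24 h library 1, 2 or 3 (0.139, 0.0569 and 0.203).

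The remaining genes that turned back act on cell cycle, signalling and metals. Cdkn1b (chromosome 6, 134920401 to 134925513), the CDK inhibitor p27 and a FOXO target, had 102, 102 and 106 CPM in the 24 h libraries, against 146, 152 and 178 CPM in the 12 h libraries (log2 fold change -0.62 ± 0.11, adjusted p = 0.0044). It was the 1 of 21 FOXO genes and the 1 of 15 D cyclin and CDK inhibitor genes called, where 0.154% of all genes fell. The FOXO list had a median log2 fold change of -0.15, with 19 of 21 below 0. At an unadjusted p under 0.05, 7 of the 21 were lower and 0 higher, where 4.9% and 3.6% of all genes were. In 6 the groups did not overlap, all lower, as in 6.71% of all genes. The D cyclin and CDK inhibitor list had 1 lower and 1 higher unadjusted. The call of Cdkn1b was lost without 12 h library 3 (adjusted p = 0.0746) or 24 h library 1 (0.065). Cysltr1 (chromosome X, 106574346 to 106603679), a receptor for cysteinyl leukotrienes, had 10.7, 9.16 and 9.76 CPM in the 24 h libraries, against 21.6, 16.4 and 23.4 CPM in the 12 h libraries (log2 fold change -1.04 ± 0.18, adjusted p = 0.0044), and leaving out 12 h library 3 gave an adjusted p of 0.0543. Its higher level at 12 h against 0 h was not called without 0 h library 1 (adjusted p = 0.0619), 2 (0.057) or 3 (0.125) or 12 h library 1 (0.0722) or 3 (0.0945). Il10ra (chromosome 9, 45253837 to 45269149), a chain of the interleukin-10 receptor, had 25.1, 29.1 and 26.1 CPM in the 24 h libraries, against 40.8, 44.5 and 47.1 CPM in the 12 h libraries (log2 fold change -0.72 ± 0.14, adjusted p = 0.0147). Its call was lost without 12 h library 2 or 3 or 24 h library 1 or 3 (adjusted p 0.0559 to 0.174). That at 12 h against 0 h was lost without 0 h library 1 or 3 or 12 h library 2 or 3 (0.0706 to 0.118). Mt2 (chromosome 8, 94172664 to 94173568), a metallothionein that binds zinc, had 30.2, 34.1 and 35.7 CPM in the 24 h libraries, against 45.7, 69.0 and 62.9 CPM in the 12 h libraries (log2 fold change -0.83 ± 0.18, adjusted p = 0.0488), and was the called gene nearest the threshold. Its call was lost without any of 8 single libraries, the exception being 12 h library 1. The other 2 genes were the pseudogenes Gm9790 and Gm10480 (-0.67 and -0.59 on the log2 scale), and the call of each was lost without 12 h library 3 (adjusted p = 0.169 and 0.328). Gm9790 was not called at 12 h against 0 h without any one of 0 h libraries 1 to 3 and 12 h libraries 2 and 3 (0.0559 to 0.156).

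**Figure D4:**
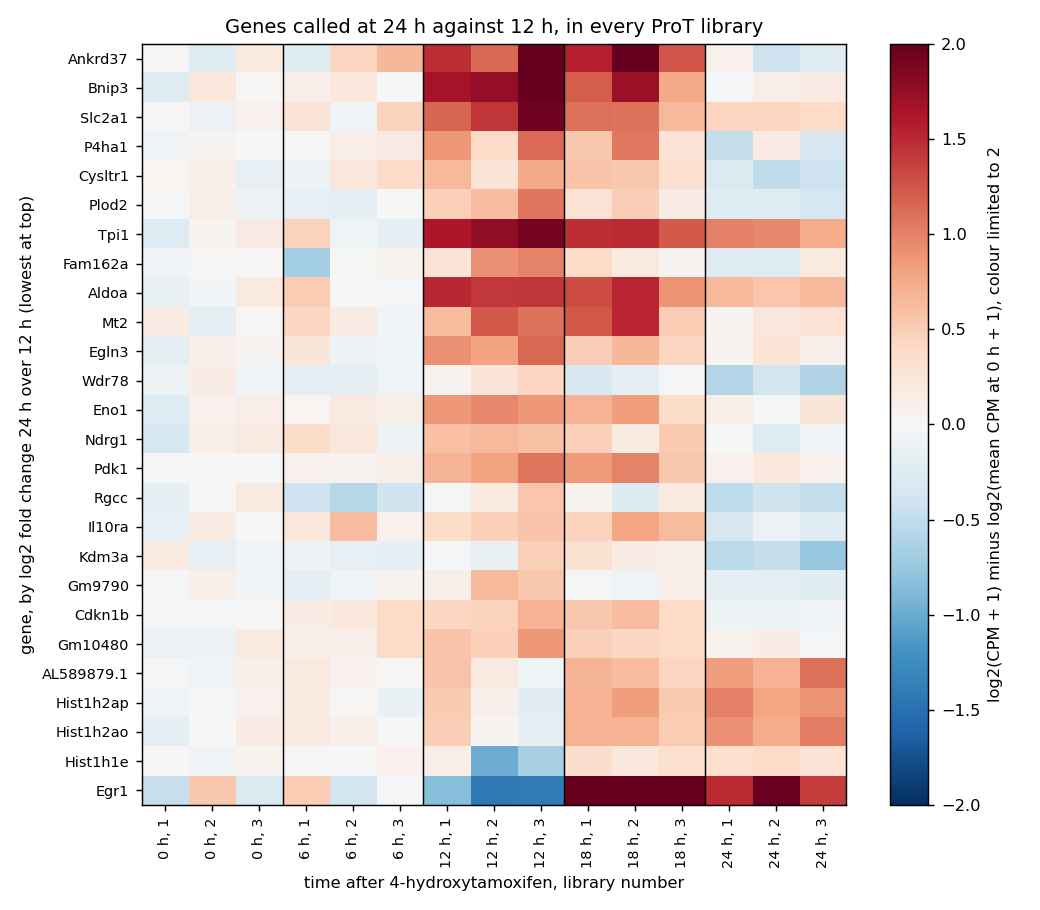
Each of the 26 called genes (rows, lowest fold change at top) in each ProT library (columns, by time and library number), coloured by log2(CPM + 1) minus log2 of the 0 h mean plus 1, with the colour limited to 2. The 21 rows from Ankrd37 down to Gm10480 are lower at 24 h than at 12 h, and the Egr1 row is blue at 12 h and dark red at 18 h.

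At 18 h, 10 of these 18 genes were called above their 6 h level. The 6 and 18 h libraries did not enter the choice of these genes, other than through the shared estimate of the spread. The 12 and 24 h libraries did enter it. The counts of 18 h against 12 h and of 24 h against 18 h are therefore partly set by that choice, and are given as counts only. At 18 h against 6 h, 10 of the 18 were called higher, where 6.39% of all genes were called, 3.42% higher and 2.97% lower. All genes are a broad background here, since the 18 were chosen as higher at 12 h against 0 h. No share over the 861 genes called higher at 12 h was taken. In 12 of the 18 every 18 h library lay above every 6 h library, as in 12.4% of all genes. At 18 h against 12 h 0 of the 18 were called by edgeR (8 were lower and 0 higher at an unadjusted p under 0.05), and 7 genes in all were called (0.0514%), all of them higher at 18 h. At 24 h against 18 h 7 of the 18 fell, where 0.147% of all genes did. Tpi1 rose by 1.32 on the log2 scale at 18 h against 6 h (adjusted p = 2.91e-06), Bnip3 by 1.24 (adjusted p = 0.000841) and Aldoa by 1.09 (adjusted p = 2.75e-05). Bnip3 fell at 24 h against 18 h (-1.27, adjusted p = 0.00593), as did Il10ra (-0.89, adjusted p = 0.00443) and Cdkn1b (-0.61, adjusted p = 0.00783). Slc2a1 was -0.56 (adjusted p = 0.37). Within a time the 18 genes shared the order of libraries: 12 h library 3 was highest in 13 of them and 18 h library 3 lowest in 15. At 6 h against 0 h 0 genes were called by edgeR, with 734 at an unadjusted p under 0.05.

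Egr1, an immediate early transcription factor, was the called gene with the greatest change. It (chromosome 18, 34859823 to 34864984) had 15.8, 22.6 and 14.6 CPM in the 24 h libraries, against 2.32, 1.22 and 1.23 CPM in the 12 h libraries, a fitted fold of 10.7 (log2 fold change 3.43 ± 0.32, adjusted p = 2.73e-07). Its other libraries had 3.35, 7.65 and 3.89 CPM (0 h), 7.52, 3.60 and 4.90 CPM (6 h) and 58.2, 85.1 and 96.2 CPM (18 h). The 12 h libraries lay below every 0 h library (log2 fold change -1.60 ± 0.43, adjusted p = 0.0138). That earlier call was lost without 0 h library 2 (-1.17, adjusted p = 0.159) or 12 h library 2 (-1.41, adjusted p = 0.0631). The 24 h libraries lay above every 0 h library (log2 fold change 1.83 ± 0.29, adjusted p = 0.000114). The peak lay at 18 h, where it was higher than at 12 h (5.59, adjusted p = 8.28e-14), and it was lower again at 24 h than at 18 h (-2.17, adjusted p = 3.07e-07). It was 1 of 21 immediate early genes tested, and the other 20 were not called at 24 h against 12 h, where 0.0367% of all genes rose. At an unadjusted p under 0.05, 5 of the 21 were higher and 0 lower, where 3.6% and 4.9% of all genes were. In 6 of the 21 the groups did not overlap, all higher, as in 7.06% of all genes.

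Histone genes made up 3 of the 5 genes higher at 24 h, and by the test used throughout none of them was called at 12 h against 0 h. Hist1h2ao (chromosome 13, 21810465 to 21810944), a histone H2A gene, had 676, 604 and 733 CPM in the 24 h libraries, against 507, 373 and 318 CPM in the 12 h libraries (log2 fold change 0.75 ± 0.14, adjusted p = 0.00722). Hist1h2ap (chromosome 13, 21833026 to 21833507), another histone H2A gene, had 258, 221 and 238 CPM in the 24 h libraries, against 183, 137 and 109.6 CPM in the 12 h libraries (log2 fold change 0.73 ± 0.14, adjusted p = 0.00951). At 24 h both were above 0 h, by 0.89 and 0.90 on the log2 scale. Hist1h1e (chromosome 13, 23620629 to 23622558), a linker histone, had 112, 115 and 107 CPM in the 24 h libraries, against 96.5, 43.6 and 55.1 CPM in the 12 h libraries (log2 fold change 0.77 ± 0.16, adjusted p = 0.0321). Its 12 h library 1 was close to its 24 h libraries, and at 24 h it was not called against 0 h (0.34, adjusted p = 0.151). Without that library Hist1h1e was called lower at 12 h against 0 h (-0.84, adjusted p = 5.88e-05) and its log2 fold change at 24 h against 12 h was 1.18. With all libraries it was also called lower at 12 h with the replicate number as a block (-0.47, adjusted p = 0.047). The same held with no filter on low counts (-0.41, adjusted p = 0.0323). The fifth, AL589879.1, is a small RNA annotation inside Hist1h2ao on the other strand. Over the ProT libraries it had a mean of 2144 counts, beside 2493 for Hist1h2ao. How reads were divided between them is not stated, so its call may not be separate from that of Hist1h2ao. These genes are near-identical to others and overlap annotations on the other strand, and the counting used here is not stated to use strand, so the values are uncertain. All 4 lost the call without 12 h library 2 or 3 or 24 h library 1 or 3, with adjusted p of 0.053 to 0.402. Hist1h1e also lost it without 24 h library 2 (0.157) or 0 h library 1 (0.0587) or 2 (0.0564).

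The last 2 genes lower at 24 h were not called at 12 h against 0 h. Rgcc (chromosome 14, 79288756 to 79301645), a cell cycle regulator, had 29.9, 32.4 and 30.8 CPM in the 24 h libraries, against 42.2, 49.6 and 63.3 CPM in the 12 h libraries (log2 fold change -0.73 ± 0.14, adjusted p = 0.0164), and was below 0 h at 24 h (-0.49, adjusted p = 0.0227). Wdr78 (chromosome 4, 103038065 to 103114555), an axonemal dynein gene that overlaps Mier1, had 11.3, 13.4 and 11.2 CPM in the 24 h libraries, against 18.6, 21.3 and 24.0 CPM in the 12 h libraries (log2 fold change -0.81 ± 0.16, adjusted p = 0.0183). Leaving out 12 h library 3 ended both calls (adjusted p = 0.262 for Rgcc and 0.193 for Wdr78), as did leaving out 24 h library 1 (0.174 and 0.186) or 3 (0.105 and 0.13), and further the loss of 24 h library 2 for Rgcc (0.0644) and 12 h library 2 for Wdr78 (0.0626).

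**Figure D5:**
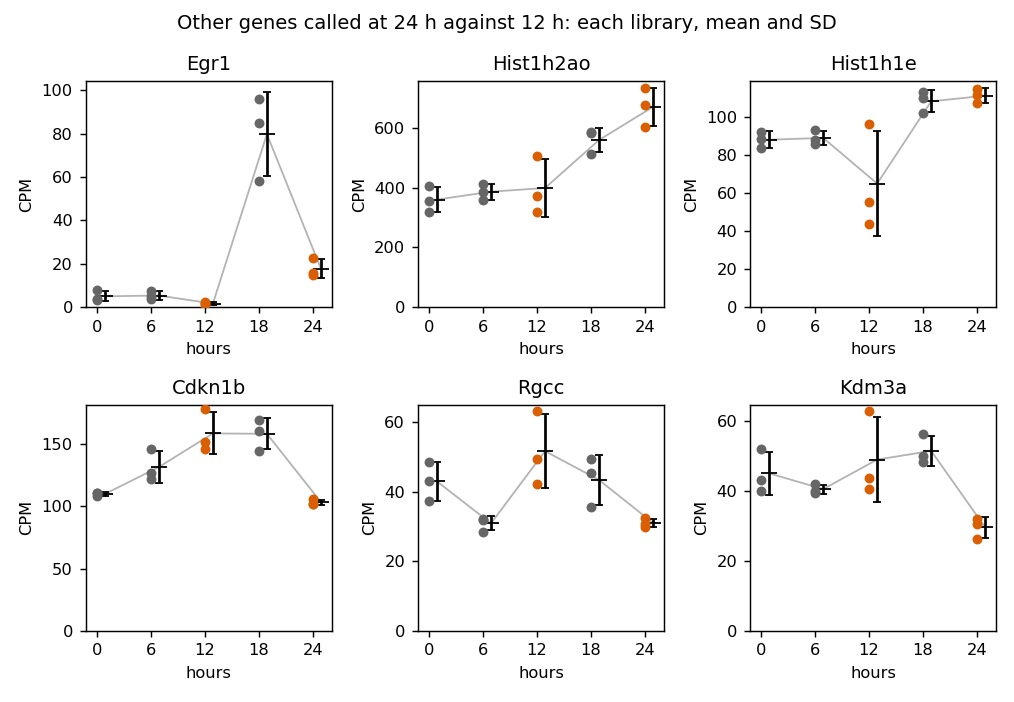
CPM against hours after 4-hydroxytamoxifen for Egr1, Hist1h2ao, Hist1h1e, Cdkn1b, Rgcc and Kdm3a, with each library as a point (12 and 24 h in orange) and the mean ± SD beside it. Egr1 peaks at 18 h, the histone genes are highest at 18 or 24 h, and the other 3 are lower at 24 h than at 12 h.

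In 5 other lists, given as examples of the 38 of 42 without a call, no gene was called between 12 and 24 h. Over all genes, 6.33% were higher and 5.69% lower at 12 h against 0 h, 9.43% and 9.30% at 24 h against 0 h, and 3.60% and 4.90% at 24 h against 12 h at an unadjusted p under 0.05. Of 33 mitosis genes, 21 had risen at 12 h against 0 h and 26 at 24 h, with 0 of 33 called at 24 h against 12 h (median log2 fold change 0.09, and 3 higher and 1 lower at an unadjusted p under 0.05). Of 36 DNA replication genes, 14 had risen at 12 h and 23 at 24 h, with 0 of 36 called between them (median 0.16, and 7 higher and 0 lower unadjusted). Of 20 tRNA synthetase genes, 1 had risen at 12 h, no more than over all genes, and 10 at 24 h, and 0 of 20 were called between them (median 0.16, and 4 higher and 0 lower unadjusted). Of 13 mitochondrially encoded mRNAs, 4 had fallen at 12 h against 0 h and 12 at 24 h, and 0 of 13 were called between them (median -0.32, and 0 higher and 6 lower unadjusted). Without 12 h library 1, mt-Cytb, mt-Co2 and mt-Atp6 fell (-0.64, -0.64 and -0.61 on the log2 scale), where 123 of 13606 genes did. At 12 h against 0 h these mRNAs were then 0.08, -0.04 and -0.05. A gene called at 24 h and not at 12 h against 0 h is not shown to differ between these times. MYC and ribosome biogenesis genes had 1 higher and 1 lower of 30 at 12 h against 0 h. Their median was 0.20 at 24 h against 12 h, with 0 called (10 higher and 1 lower unadjusted). Without 12 h library 1, 4 of 30 (Dkc1, Nolc1, Wdr12 and Wdr43) rose, where 90 of 13606 genes did. DESeq2 called 0 genes of these 5 lists at 24 h against 12 h.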

How the data were processed

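RNA was measured by sequencing in 15 ProT libraries, 3 at each of 0, 6, 12, 18 and 24 h, of 27 libraries in 9 groups. The deposited values are whole-number counts per gene, 1 column per library. The submitters' processing notes name FastQC, SAMtools, HISAT2 and HTSeq, with builds mm10 and GRCm38. Tool versions, strand setting and annotation release are not given in the sources used here. The table held 46078 identifiers, of which 45143 were found in GENCODE M21 (GRCm38), the source of gene positions. Its 5 summary lines entered neither library sizes nor tests, and 27 symbols turned into dates were restored. Mouse thymus tables were not used here.

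Counts were fitted with edgeR 4.0.16 in R 4.3.3 (TMM, filterByExpr, quasi-likelihood F test, two-sided), over all 15 libraries, with Benjamini-Hochberg adjustment over 13610 genes and a threshold of 0.05. The SE is the absolute log2 fold change over the square root of F, and the biological coefficient of variation was 11.6%. No batch is labelled. Alternatives were other scaling, filters, groups in the fit, DESeq2 1.42.0 and leaving out each of the 9 libraries of 0, 12 and 24 h. The comparisons of 18 h with 6, 12 and 24 h were added after seeing the data. Members and the 42 gene lists (791 genes, 8 of the lists markers) were chosen with earlier results of these data known. A rule named 17 genes: Tal1, up to 8 with the largest change per class and direction with a mean of at least 5 CPM, and called list members. The other 10 called genes are named because only 26 were called, after their values were seen.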

Additional observations from a re-analysis of the deposited data

Results flagged for a closer look

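Egr1 moved in opposite directions at 12 h and at 24 h: it was lower at 12 h than at 0 h (log2 fold change -1.60) and 3.43 higher on the log2 scale at 24 h than at 12 h, by edgeR in each case. The call at 12 h was lost without 0 h library 2 (adjusted p = 0.159) or 12 h library 2 (0.0631). The later difference was itself tested, with an adjusted p of 2.73e-07, and was called in every alternative run. Each 24 h library lay above every 12 h library. Both differences share the 12 h libraries, at 2.32, 1.22 and 1.23 CPM, a level that rests on few counts. Egr1 was highest at 18 h (58.2, 85.1 and 96.2 CPM) and was lower again at 24 h than at 18 h (log2 fold change -2.17).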

How the results depend on the processing

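Of the 26 called genes, 10 (Ankrd37, Bnip3, Slc2a1, Plod2, Tpi1, Aldoa, Egln3, Eno1, Pdk1 and Egr1) kept their call at 24 h against 12 h in all 17 alternatives run per gene, and no gene changed direction in any of them. Of the 19 that turned back, 13 also kept the call at 12 h against 0 h in every alternative that gave it, and Cysltr1, Egr1, Gm9790, Il10ra, Ndrg1 and P4ha1 lost it in some. Scaling by library size alone gave 3 genes higher at 24 h and 3 late changes. With no filter on low counts 121 genes were called, 22 higher and 99 lower, with 16 of the glycolysis and hypoxia list lower, 9 that kept growing, 49 that turned back (43 higher and 6 lower at 12 h) and 63 late. Fitting 12 and 24 h libraries alone gave 1 gene higher, and fitting 0, 12 and 24 h gave 33 lower and 11 late. A log2 fold change of at least 1 left 7 calls, 1 higher and 6 lower, and 7 that turned back, 6 of them higher at 12 h. Taking the early change from 6 h against 0 h left 0 that turned back, an outcome fixed in advance because 0 genes were called at 6 h against 0 h. DESeq2 called 34 genes, including all 26. With each of the 9 libraries of 0, 12 and 24 h left out in turn, the calls ran from 10 to 213, those higher from 1 to 90, those lower from 9 to 123, the glycolysis and hypoxia list from 8 to 14 lower, those that kept growing from 0 to 2, those that turned back from 10 to 74 (9 to 50 higher and 0 to 24 lower at 12 h), those not called after 12 h from 804 to 1529, late changes from 0 to 137, calls at 12 h against 0 h from 819 to 1542 and at 24 h against 0 h from 1447 to 2805, and Tal1 from -0.15 to 0.01. Deviations of same-numbered 12 and 24 h libraries had correlations of 0.122, -0.376 and -0.254, so the numbers did not pair them, and not every library correlated best with its own number. Among libraries numbered 1 from 6 to 24 h the correlations ran from 0.0234 (18 with 24 h) to 0.5 (6 with 18 h), with 0.372 for 6 with 12 h. Those of 0 h library 1 with the other libraries numbered 1 ran from -0.269 to 0.117. With the replicate number as a replicate block 31 genes were called, among them all 26, and 22 turned back, 2 of them lower at 12 h. Scaling by library size alone ended the calls of Mt2, Ndrg1, Rgcc, Kdm3a, Gm10480, AL589879.1 and Hist1h1e. The fit on 12 and 24 h libraries alone ended those of P4ha1, Fam162a, Wdr78, Rgcc, Kdm3a, Gm9790, Gm10480, AL589879.1, Hist1h2ap, Hist1h2ao and Hist1h1e. Causes of these differences were not tested. Genes below about 5 CPM rest on few counts at these depths.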

Other observations

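Without 12 h library 1, 24 h against 12 h gave 213 calls, 90 higher and 123 lower, among them all 26 genes called over all libraries. Of these, 74 had turned back, 2 had kept growing and 137 had not been called at 12 h. The genes that kept growing were Mthfd2, a mitochondrial folate enzyme (log2 fold change 0.46), and Hist1h2ai, a histone H2A gene (0.50). Library 1 differed from the other 12 h libraries by a median log2 of -0.50 over mitochondrially encoded mRNAs and -0.22 over cytosolic ribosomal protein genes, and by 0.00 over all genes and over the glycolysis and hypoxia list. Which of the 12 h libraries is closer to the usual state at 12 h was not tested.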
